A study of Mus musculus with 8 samples.

Results

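Interferon response genes are the transcripts that cells switch on after interferon binds its receptors. The list held 35 of them, chosen by name, and all 35 were found by symbol among the 30146 mouse genes and unnamed identifiers of the deposited kidney table. The study set 4 aged mice against 4 adult mice. All 8 were C57/BL6 mice that carried the human angiotensin receptor type 1 in its Haplotype-II form and ate a western diet, so no group lacked the transgene or the diet. The series title calls the mice hypertensive. Ages in months, the sex of the animals, the promoter of the transgene and the number of founder lines are not stated in the labels. Each animal gave 1 library of polyadenylated RNA from kidney tissue, valued in TPM (a relative level corrected for transcript length, in which all genes of a library share a fixed total).

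Type I and type III interferons signal through receptor-bound kinases to a complex that holds STAT2 and IRF9 and binds the interferon-stimulated response element (ISRE) in the promoters of their targets. Interferon gamma acts through another element, the gamma-activated site (GAS). The targets sense viral nucleic acid, block viral translation and replication, attack the membranes around intracellular microbes and feed back on the signal. Many are transcribed at a low level in tissues without infection, the kidney included.

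Kidney identity was plain in every library, since proximal tubule markers summed to at least 532 TPM and distal nephron markers to at least 280 TPM. All 6 proximal tubule markers, all 6 distal nephron markers and all 3 podocyte markers had values above 0 in each library. Between 10663 and 12293 genes per library reached 1 TPM. TPM hold no read depth, so no counting interval can be given. The level of a gene also depends on what else fills the scale, and mitochondrial transcripts took between 26.8% and 46.9% of it in aged and between 19.6% and 26.1% in adult libraries. A size factor, the median ratio of a library's genes to their mean over libraries, lay between 0.685 and 1.31 in aged and between 0.730 and 1.49 in adult libraries. The lowest were those of aged replicate 3 and adult replicate 3. The Y-linked genes Uty, Ddx3y, Eif2s3y and Kdm5d together reached 34.7 to 50.6 TPM in aged and adult replicates 3 and 4, but only 0.485 to 2.30 TPM in aged and adult replicates 1 and 2. The labels do not name this split, which falls evenly over the age groups.

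Promoter sequence shows what many of the genes have in common. The interval from 250 bases before to 50 bases after the start site was available from RefSeq on GRCm38.p6 for 26 of the 35 genes. An ISRE core, searched on both strands as GAAANNGAAA, occurred in 16 of the 26 (61.5%), against 3.99% of 27025 genes with such an interval. A GAS core, TTCNNNGAA, which reads the same on both strands, occurred in 7 of the 26 (26.9%), against 9.55% of all genes. In 1 gene, Bst2, a match to each motif overlapped. A match describes the letters of the interval and does not show binding. The 9 genes with no entry were Dhx58, Ifi27, Mx1, Mx2, Oas2, Parp14, Rtp4, Usp18 and Zbp1. In the 10 genes Ifi35, Ifi44, Ifi47, Ifit2, Irf1, Irf7, Irf9, Oasl1, Oasl2 and Xaf1, the ISRE letters were not in the interval, and 3 of these (Ifi35, Ifit2 and Irf1) had a GAS match.

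The stretches below hold ISRE matches of genes that the results return to, namely ISG15, the restriction factor Bst2, 2 immunity-related GTPases, 3 guanylate-binding proteins and the near-identical pair Ifit3 and Ifit3b. They are written 5′ to 3′ on the strand of the gene, and capitals mark the bases of ISRE matches on either strand. Isg15 lies on the minus strand at chr4:156200871-156200900, with 3 overlapping matches. Bst2 is at chr8:71537583-71537612 on the minus strand and Irgm1 at chr11:48871431-48871460 on the minus strand, each with 2 overlapping matches. Igtp is at chr11:58199512-58199541 on the plus strand. On the plus strand of chromosome 3 are Gbp2 at chr3:142620594-142620623, Gbp3 at chr3:142559989-142560018, with 2 overlapping matches, and Gbp7 at chr3:142530273-142530302. Ifit3 at chr19:34583363-34583392 and Ifit3b at chr19:34607759-34607788, both on the plus strand, have the same 30 bases.
Isg15: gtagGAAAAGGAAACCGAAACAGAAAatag
Bst2: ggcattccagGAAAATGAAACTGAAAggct
Irgm1: cctgtttcaaGAAATAGAAACCGAAActga
Igtp: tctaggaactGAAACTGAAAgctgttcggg
Gbp2: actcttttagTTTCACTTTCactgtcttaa
Gbp3: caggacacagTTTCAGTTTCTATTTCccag
Gbp7: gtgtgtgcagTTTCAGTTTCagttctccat
Ifit3: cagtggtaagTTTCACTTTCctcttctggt
Ifit3b: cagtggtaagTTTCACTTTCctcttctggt

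No interferon response gene passed the test between aged and adult kidneys, and their fold changes leaned to the same side as those of most genes. Of the 35 genes 34 had a mean of at least 1 TPM and were tested, and Mx1 was not. limma on log2(TPM + 1), adjusted over all 11796 genes, called 0 of the 34 and 0% of all genes. The adjusted p was 1.00 for each of the 34. At an unadjusted p under 0.05 stood 1 of the 34 (Ifi47, lower in aged) and 400 of all genes, with 2.76% of all genes lower and 0.636% higher in aged kidneys. The log2 fold change (aged over adult) was negative for 25 and positive for 9, and 65% of all genes were negative. Its median was −0.18 over the 34 genes and −0.11 over all genes tested. The 3 genes Ifi47, Zbp1 and Rtp4 had every aged library below every adult one, a pattern found in 2.11% of all genes. None had every aged library above. Bulk tissue was measured, so fewer cells of a type and less RNA per cell cannot be told apart.

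The scale of the libraries bears on these counts. With TPM rescaled after removal of mitochondrial genes, 11 of the 34 genes were negative, with a median of 0.07, while the median of all genes was 0.15. With size factors 21 were negative (median −0.09, all genes −0.02), and with quantile normalization 22 (median −0.12, all genes 0.00). The genes of the list with every aged library below every adult one then numbered 1 with size factors (2.6% of all genes) and 1 with quantile normalization (1.92% of all genes), Igtp in both, and 0 after mitochondrial genes were removed (0.501% of all genes). Without adult replicate 3 they numbered 5, Ifi27 and Oas1a beside the 3 above, and the share of all genes was 4.37%. Without adult replicate 4 Oas2 had every aged library above every adult one, as did 71 of all 11796 genes. The genes of the list at an unadjusted p under 0.05, 1 with all libraries, numbered 0 without adult replicate 2 or 4, 6 without adult replicate 3, 4 with the Y-linked class as a covariate, 5 with the replicate block and 8 with array weights, and 0 passed adjustment in any of these. Of all 11796 genes 400 stood there with all libraries, 214 without adult replicate 2 and 328 without adult replicate 4. The number was 514 without adult replicate 3, 998 with the Y-linked covariate, 916 with the replicate block and 776 with array weights. The sign of the fold change was kept, in each of the 22 alternative settings that tested the gene, by 11 genes that were lower in aged kidneys (Zbp1, Irf7, Oas1a, Isg15, Usp18, Bst2, Igtp, Irgm1, Ifi47, Ifi27 and Rtp4) and by 2 that were higher (Dhx58 and Oas2). The filter at a mean of 5 TPM tested 19 of the 34, without Zbp1, Oas1a, Usp18, Rtp4, Dhx58 and Oas2. Some settings, such as the filters and the replicate block, could not move a fold change. How many of all genes kept their sign was not counted. For Oas2 the fold change was 0.019 in the 4 libraries with Y-linked transcripts and 0.84 in the 4 without.

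**Figure D1:**
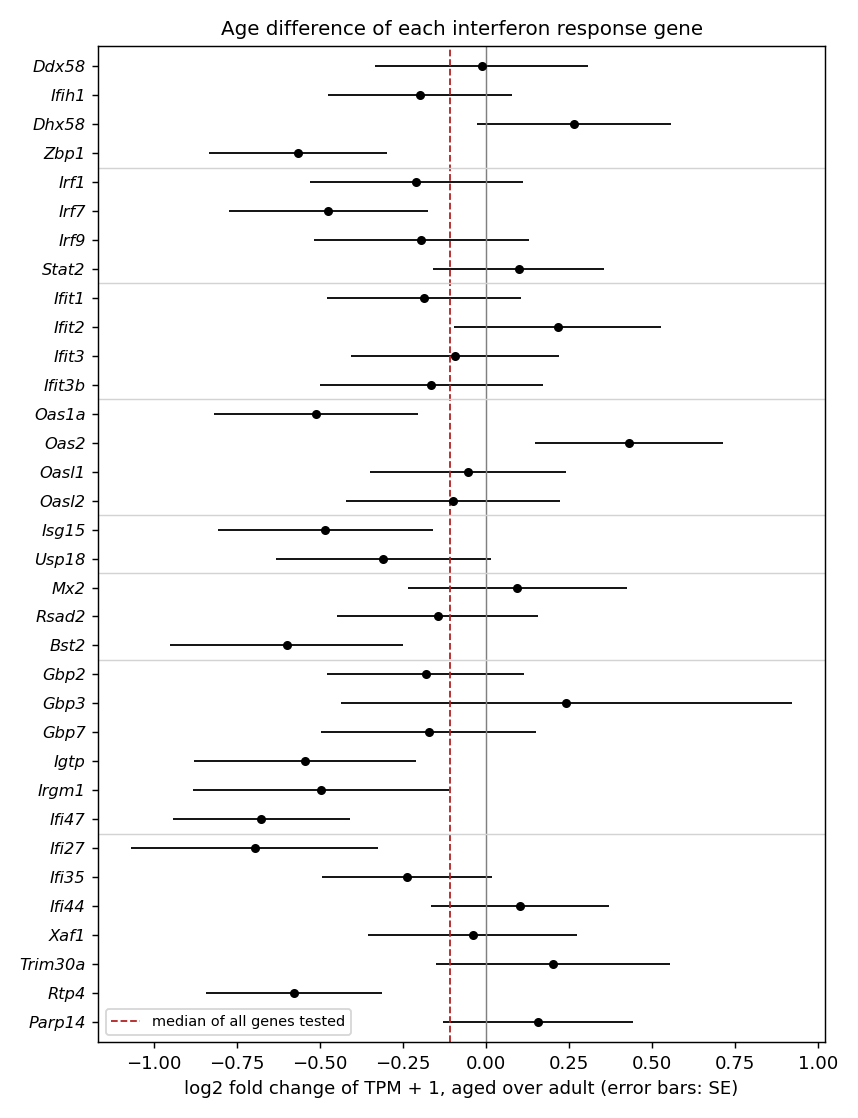
Log2 fold change of TPM + 1 (aged over adult, x axis) of the 34 genes tested, with SE as error bars (n = 4 aged and 4 adult libraries), in the order of their roles. The dashed line is the median of all 11796 genes, −0.11. Ifi27 and Ifi47 lie farthest to the left at −0.70 and −0.68 and Oas2 farthest to the right at 0.43, and none passed adjustment.

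The interferons themselves were hardly seen. Of 14 interferon genes 12 were listed at 0 in every library, among them Ifnb1 and all 8 alpha interferons looked up. Ifng, which encodes interferon gamma, had 0, 0, 0.149 and 0 TPM in the 4 aged libraries, against 0.0470, 0.0564, 0.344 and 0 TPM in the 4 adult libraries. Ifnk was listed at 0 in every aged library and at 0.0779 TPM in adult replicate 1. At these values no comparison was made.

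Of 6 receptor genes 5 reached a mean of 1 TPM and were tested. Ifnlr1, the chain specific to type III interferon, lay between 0.830 and 1.13 TPM in aged and between 0.515 and 0.913 TPM in adult libraries and was not. All 5 tested receptor genes had negative fold changes (median −0.19) and 0 passed. Il10rb, a chain shared by type III interferon and interleukin receptors, averaged 32.8 ± 11.02 TPM in aged and 39.4 ± 19.8 TPM in adult kidneys (SD, n = 4 each). Of the type I receptor chains, Ifnar1 averaged 7.86 TPM in aged and 8.29 TPM in adult kidneys, and Ifnar2 18.04 TPM in aged and 21.6 TPM in adult kidneys. Of the interferon gamma receptor chains, Ifngr1 averaged 19.5 TPM in aged and 21.6 TPM in adult kidneys, and Ifngr2 7.73 TPM in aged and 9.99 TPM in adult kidneys. The kinase gene Jak1 averaged 15.9 TPM in aged and 16.7 TPM in adult kidneys, Jak2 7.73 TPM in aged and 6.39 TPM in adult kidneys, and Stat3, which also serves other cytokines, 9.97 TPM in aged and 8.41 TPM in adult kidneys. The kinase gene Tyk2 was at most 0.00148 TPM in any library, and a value this close to 0 in an estimated table can be a failed estimate.

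Among the sensors of viral nucleic acid, Zbp1 stood apart by its groups on the TPM scale as deposited. Zbp1, which binds Z-form nucleic acid and can start cell death, had 1.85, 2.58, 1.27 and 2.74 TPM in aged and 3.36, 3.42, 2.95 and 4.46 TPM in adult replicates 1 to 4. Every aged library lay below every adult one, with means of 2.11 ± 0.68 TPM in aged and 3.55 ± 0.64 TPM in adult kidneys (SD, n = 4 each) and a log2 fold change of −0.57 (SE 0.27). This pattern was found in 2.11% of all genes. The groups of Zbp1 overlapped with size factors, with quantile normalization or with mitochondrial genes removed. Ddx58 (RIG-I), which detects short double-stranded RNA with 5′ triphosphates, had 6.83, 9.87, 4.85 and 5.23 TPM in aged replicates 1 to 4 and 10.1, 7.602, 4.07 and 5.66 TPM in adult replicates 1 to 4. The groups overlapped almost completely. Ifih1 (MDA5), the sensor of long double-stranded RNA, had 3.77, 4.08, 2.75 and 2.33 TPM in the 4 aged libraries, against 4.92, 4.65, 2.69 and 3.24 TPM in the 4 adult libraries, so that the lowest value was an aged one and the highest an adult one. Dhx58 (LGP2), which modulates both helicases, had 1.145, 2.24, 1.12 and 1.06 TPM in aged and 1.49, 1.04, 0.336 and 1.14 TPM in adult replicates 1 to 4. Its positive log2 fold change of 0.27 (SE 0.29) went with a high value in aged replicate 2 and a low one in adult replicate 3, while the other libraries overlapped.

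No transcription factor of the response passed, and Irf7 had the largest fold change of the 4. Irf7, the factor that amplifies type I interferon production, had 15.4, 9.30, 9.45 and 11.1 TPM in aged replicates 1 to 4 and 14.5, 15.7, 10.7 and 25.2 TPM in adult replicates 1 to 4. Adult replicate 4 was the highest library by a wide margin, and the groups overlapped (log2 fold change −0.47, SE 0.30). Without that library the fold change was −0.26. Irf1, an early target of interferon gamma, had 12.6, 8.37, 6.51 and 6.08 TPM in the 4 aged libraries, against 14.8, 10.97, 6.67 and 7.39 TPM in the 4 adult libraries. Irf9, the DNA-binding partner of STAT2, had 10.2, 6.96, 4.00 and 6.10 TPM in aged and 10.8, 8.26, 4.72 and 7.68 TPM in adult replicates 1 to 4. In both, replicate 1 was the highest library within each age group. Stat2 had 3.73, 3.86, 2.98 and 3.61 TPM in aged replicates 1 to 4 and 4.07, 2.82, 2.34 and 3.95 TPM in adult replicates 1 to 4, a narrow span in both groups (log2 fold change 0.10, SE 0.26).

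The IFIT genes, whose products bind foreign RNA and block its translation, lie side by side on chromosome 19 (GRCm38), from Ifit2 at chr19:34550694-34576419 to Ifit1 at chr19:34640871-34650009. Ifit3 had 30.4, 20.5, 23.0 and 19.3 TPM in the 4 aged libraries, against 28.2, 34.8, 13.3 and 27.5 TPM in the 4 adult libraries. Its neighbour Ifit3b had 7.11, 3.95, 5.14 and 4.04 TPM in aged and 6.86, 7.22, 2.58 and 7.49 TPM in adult replicates 1 to 4. For both, adult replicate 3 was the lowest and aged replicate 1 and adult replicates 1, 2 and 4 were the highest 4. Of the 31-base words in the annotated transcripts of Ifit3, 61.8% also occurred in Ifit3b, so reads can be split between them and their separate levels are uncertain. Ifit1 had 3.23, 1.79, 2.77 and 2.10 TPM in aged replicates 1 to 4 and 3.20, 3.798, 1.54 and 3.53 TPM in adult replicates 1 to 4. Ifit2 had 8.28, 6.88, 5.55 and 4.26 TPM in the 4 aged libraries, against 6.08, 6.86, 2.77 and 5.60 TPM in the 4 adult libraries. Adult replicate 3 was again the lowest, and no IFIT gene had groups that did not overlap, with log2 fold changes between −0.19 (Ifit1) and 0.22 (Ifit2).

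The 2′-5′-oligoadenylate synthetase family, whose active members make the second messenger that turns on RNase L, held both signs. Oas2 had 2.27, 1.38, 1.00 and 0.978 TPM in aged and 0.427, 0.694, 0.632 and 1.37 TPM in adult replicates 1 to 4. With a log2 fold change of 0.43 (SE 0.28) it was the most positive of the 34 genes, and 3 of the 4 adult libraries lay below every aged one. Oas1a had 3.68, 2.86, 1.63 and 1.82 TPM in aged replicates 1 to 4 and 3.89, 4.85, 2.25 and 4.95 TPM in adult replicates 1 to 4 and a log2 fold change of −0.51 (SE 0.31). Aged replicates 1 and 2 lay within the adult span and aged replicates 3 and 4 below it. Of its 31-base words 68.8% were shared, chiefly with Oas1g, so its level is uncertain. Oasl2 had 5.05, 5.78, 3.34 and 3.34 TPM in the 4 aged libraries, against 6.25, 5.33, 2.24 and 5.82 TPM in the 4 adult libraries. Oasl1, which represses translation of Irf7 in mice, had 0.963, 1.03, 0.779 and 1.48 TPM in aged and 1.62, 0.534, 0.697 and 1.98 TPM in adult replicates 1 to 4. The groups of both overlapped throughout.

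Isg15 and its protease had lower means in the aged kidneys without passing. Isg15, a ubiquitin-like modifier that is conjugated to many proteins, had 19.8, 8.29, 12.6 and 8.72 TPM in aged replicates 1 to 4 and 16.5, 22.1, 11.2 and 18.7 TPM in adult replicates 1 to 4. Its log2 fold change was −0.48 (SE 0.32), and aged replicate 1 was second only to adult replicate 2. Usp18, which removes ISG15 and dampens the type I receptor, had 3.25, 3.499, 2.93 and 1.61 TPM in the 4 aged libraries, against 3.24, 5.78, 1.92 and 4.51 TPM in the 4 adult libraries (log2 fold change −0.31, SE 0.32). Without adult replicate 2 the fold change was −0.13, without aged replicate 4 it was −0.14, and without adult replicate 3 it was −0.53. Adult replicate 2 was the highest library for both.

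Of the antiviral effectors Bst2 had the largest difference. Bst2 (tetherin), which holds budding virus particles at the cell surface, had 41.9, 25.1, 17.0 and 17.9 TPM in aged and 46.1, 39.0, 21.1 and 47.0 TPM in adult replicates 1 to 4. All 3 aged libraries other than replicate 1 lay below 3 of the 4 adult ones, while adult replicate 3 lay among the aged (log2 fold change −0.60, SE 0.35). Rsad2 (viperin), an enzyme that makes a chain-terminating nucleotide, lay between 7.43 and 12.3 TPM in aged and between 6.69 and 17.1 TPM in adult libraries, highest in adult replicate 1. Mx2 had 1.03, 1.77, 1.24 and 0.365 TPM in aged replicates 1 to 4 and 0.675, 1.18, 0.278 and 1.83 TPM in adult replicates 1 to 4. Both overlapped between the groups. Mx1, like Mx2 a dynamin-like GTPase, lay between 0.142 and 0.756 TPM in aged and between 0.112 and 0.647 TPM in adult libraries and was not tested.

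The interferon-inducible GTPases held the gene with the smallest p. Ifi47 (IRG-47), an immunity-related GTPase of the kind that acts on the membranes around intracellular pathogens in mice, had 3.05, 3.83, 3.53 and 4.07 TPM in the 4 aged libraries, against 7.24, 8.34, 4.24 and 6.30 TPM in the 4 adult libraries. Every aged library lay below every adult one. The groups of Ifi47 overlapped with size factors, with quantile normalization or with mitochondrial genes removed. On TPM as deposited the means were 3.62 ± 0.44 TPM in aged and 6.53 ± 1.74 TPM in adult kidneys (SD, n = 4 each), with a log2 fold change of −0.68 (SE 0.27), an unadjusted p of 0.0267 and a limma adjusted p of 1.00. Igtp (Irgm3), of the same family, had 5.10, 8.11, 4.42 and 6.43 TPM in aged and 16.3, 9.33, 5.24 and 8.08 TPM in adult replicates 1 to 4, and Irgm1, a regulator of the family and of autophagy, had 13.0, 20.8, 8.28 and 17.4 TPM in aged replicates 1 to 4 and 34.6, 20.1, 10.1 and 23.7 TPM in adult replicates 1 to 4. Adult replicate 1 was far above the rest for both, and 3 of 4 aged libraries of Igtp lay below 3 of 4 adult ones. Their log2 fold changes were −0.55 (SE 0.34) and −0.50 (SE 0.38). Without adult replicate 1 these were −0.28 for Igtp and −0.25 for Irgm1. The 3 genes lie on chromosome 11, Irgm1 at chr11:48861968-48871683, Ifi47 at chr11:49076587-49096974 and Igtp at chr11:58199556-58207591. Igtp shared 15.9% of its 31-base words with a further family member, Irgm2.

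**Figure D2:**
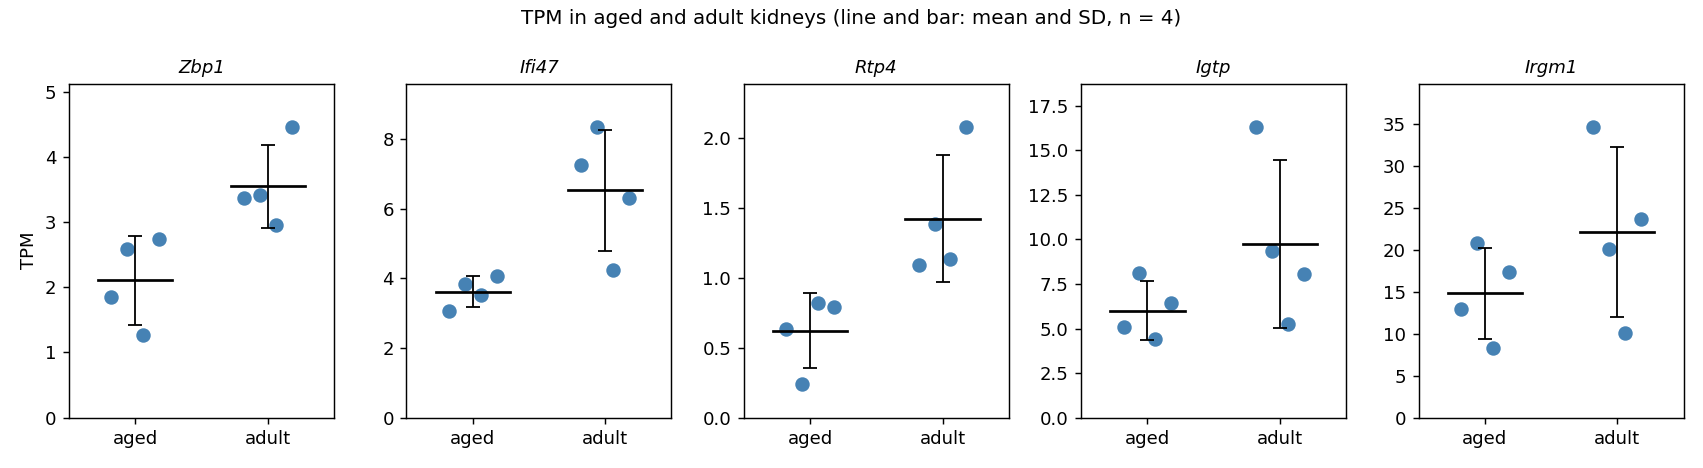
TPM as deposited (y axis, from 0) of 5 genes in the 4 aged and 4 adult libraries (points), with the mean (line) and SD (bar). For Zbp1, Ifi47 and Rtp4 the highest aged library (2.74, 4.07 and 0.821 TPM) lies below the lowest adult one (2.95, 4.24 and 1.09 TPM), while Igtp and Irgm1 overlap and have their highest value in adult replicate 1.

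The guanylate-binding proteins, large GTPases that coat and break open pathogen vacuoles, did not separate by age, and Gbp3 had the largest SE of the list on the log2 scale. Gbp2 had 5.94, 4.67, 2.94 and 5.07 TPM in the 4 aged libraries, against 7.50, 6.05, 3.45 and 4.84 TPM in the 4 adult libraries, and Gbp7 had 2.97, 2.77, 1.52 and 1.45 TPM in aged and 4.31, 2.08, 1.30 and 2.96 TPM in adult replicates 1 to 4. Gbp3 had 24.0, 21.1, 5.03 and 4.55 TPM in aged replicates 1 to 4 and 22.6, 18.2, 2.44 and 5.05 TPM in adult replicates 1 to 4. Replicates 1 and 2 of both ages were at 18.2 TPM or more and replicates 3 and 4 at 5.05 TPM or less, with nothing between. This is the division that the Y-linked transcripts draw.

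Between the 4 libraries with and the 4 without Y-linked transcripts Gbp3 was the most changed of the list. It fell to 4.27 ± 1.24 TPM with, against 21.5 ± 2.46 TPM without Y-linked transcripts (SD, n = 4 each), a log2 fold change of −2.12 (SE 0.22) and a limma adjusted p of 0.000513 with age in the model. By age within the classes it averaged 4.79 TPM in aged and 3.75 TPM in adult libraries with Y-linked transcripts, and 22.6 TPM in aged and 20.4 TPM in adult libraries without them. The adjusted p lay between 0.000421 and 0.00513 in the alternatives, which included each library left out, with a log2 fold change of −1.62 with size factors and −1.64 with quantile normalization. Its neighbours on chromosome 3 (Gbp7 at chr3:142530342-142550149, Gbp3 at chr3:142560026-142573209, Gbp2 at chr3:142620602-142638008) averaged 4.07 ± 1.04 TPM with, against 6.04 ± 1.16 TPM without Y-linked transcripts (SD, n = 4 each) for Gbp2 and 1.81 ± 0.77 TPM with, against 3.03 ± 0.93 TPM without Y-linked transcripts (SD, n = 4 each) for Gbp7, and neither passed (adjusted p = 0.136 and 0.148). The ratio of Gbp3 to Gbp2 within a library, which no factor per library moves, was 4.04 and 4.52 in aged replicates 1 and 2 and 1.71 and 0.897 in aged replicates 3 and 4. In adult replicates 1 and 2 it was 3.01 and 3.01, and in adult replicates 3 and 4 it was 0.708 and 1.04. Gbp3 shared 5.64% of its 31-base words with other genes, mostly Gbp7.

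**Figure D3:**
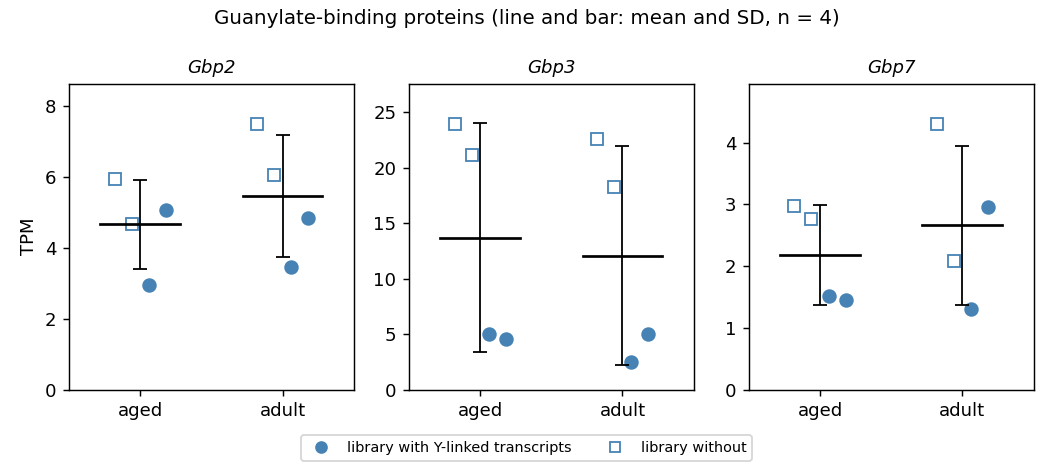
TPM (y axis, from 0) of Gbp2, Gbp3 and Gbp7 in aged and adult libraries, with filled circles for libraries with and open squares for libraries without Y-linked transcripts, and the mean (line) and SD (bar) of each age group. Gbp3 is between 2.44 and 5.05 TPM in every filled circle and between 18.2 and 24.0 TPM in every open square.

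For the rest of the list this division followed the whole table. The log2 fold change (with over without Y-linked transcripts) was negative for 32 of 34 genes with a median of −0.37, against 89.2% of all genes and a median of −0.46. Besides Gbp3 only Irf1 was called lower (6.66 ± 0.54 TPM with, against 11.7 ± 2.70 TPM without Y-linked transcripts (SD, n = 4 each), log2 fold change −0.70, SE 0.20, limma adjusted p = 0.0499), and 2 of 34 compares with 11.3% of all genes called lower. Of all genes 1331 were called lower and 133 higher, against 292 lower and 348 higher with size factors and 319 lower and 316 higher with quantile normalization. Irf1 was not called under any alternative run, and Ifi27 was called lower without adult replicate 4. Every library with Y-linked transcripts lay below every library without them for 5 of the 34 (Ddx58, Ifih1, Irf1, Ifit2 and Gbp3), a pattern of 21.3% of all genes. With size factors the median was 0.06 for the list and 0.01 for all genes. The difference in the age effect between the classes (interaction) passed for 0 of the 34 genes and 0.0339% of all genes, and at an unadjusted p under 0.05 stood 0 of the 34 and 245 of all 11796 genes. Macrophage markers summed to between 65.9 and 135 TPM in libraries with and between 156 and 323 TPM in libraries without Y-linked transcripts, and distal nephron markers to between 280 and 594 TPM and between 976 and 2030 TPM. These are TPM as deposited, on which 89.2% of all genes were lower with Y-linked transcripts. Lyz2, the largest part of the macrophage sum, overlapped between the classes (36.6 to 89.9 TPM with, 55.5 to 215 TPM without). So did Adgre1, Csf1r and Cd68, while C1qa, C1qb and C1qc did not. The marker sums of the other cell types looked up overlapped between the classes. Those of B and plasma cells ran the other way, between 131.5 and 577 TPM with and between 47.9 and 226 TPM without Y-linked transcripts. Neutrophil markers leaned that way too, between 12.1 and 45.8 TPM with and between 9.74 and 34.3 TPM without them. The only tested plasmacytoid dendritic cell marker, Ly6d, also had a positive log2 fold change (0.17). The part of any of these cell types in the Gbp3 difference was not tested.

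The remaining interferon-induced genes included the most abundant of the list. Ifi27, a mitochondrial protein gene that is widely used as a marker of interferon exposure in humans, had 89.2, 75.2, 38.1 and 39.3 TPM in the 4 aged libraries, against 108, 109.6, 48.7 and 124 TPM in the 4 adult libraries. Aged replicates 3 and 4 and adult replicate 3 were low and all others at 75.2 TPM or more, for a log2 fold change of −0.70 (SE 0.37). Rtp4, a chaperone of membrane receptors, had 0.636, 0.237, 0.821 and 0.790 TPM in aged and 1.09, 1.39, 1.13 and 2.07 TPM in adult replicates 1 to 4. Every aged library lay below every adult one, with means of 0.621 ± 0.27 TPM in aged and 1.42 ± 0.45 TPM in adult kidneys (SD, n = 4 each) and a log2 fold change of −0.58 (SE 0.26). At this level the pseudocount of 1 compresses the difference, and with a pseudocount of 0.1 it was −1.14. The groups of Rtp4 overlapped with size factors, with quantile normalization or with mitochondrial genes removed. Rtp4 shared 12.5% of its 31-base words, all with Gm45338.

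Xaf1, a pro-apoptotic zinc finger protein gene, had 19.5, 10.5, 11.7 and 10.3 TPM in aged replicates 1 to 4 and 10.2, 19.3, 8.89 and 15.8 TPM in adult replicates 1 to 4. Trim30a, a mouse TRIM protein that restrains inflammatory signalling, had 6.13, 2.73, 2.96 and 2.62 TPM in the 4 aged libraries, against 4.38, 2.19, 1.40 and 4.31 TPM in the 4 adult libraries. In both, aged replicate 1 was the highest library, and the other 3 aged libraries were close to each other. Ifi35, an adaptor that pairs with NMI, had 13.7, 9.32, 8.05 and 9.88 TPM in aged and 12.0, 14.8, 9.82 and 11.9 TPM in adult replicates 1 to 4, and Ifi44, a cytoplasmic antiviral protein gene, had 8.15, 9.02, 6.75 and 6.89 TPM in aged replicates 1 to 4 and 7.12, 8.06, 4.64 and 9.16 TPM in adult replicates 1 to 4. Parp14, an ADP-ribosyltransferase, had 3.11, 2.51, 1.99 and 2.46 TPM in the 4 aged libraries, against 2.88, 2.01, 1.09 and 2.96 TPM in the 4 adult libraries. For these 5 genes the groups overlapped, with log2 fold changes between −0.24 (Ifi35) and 0.20 (Trim30a).

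**Figure D4:**
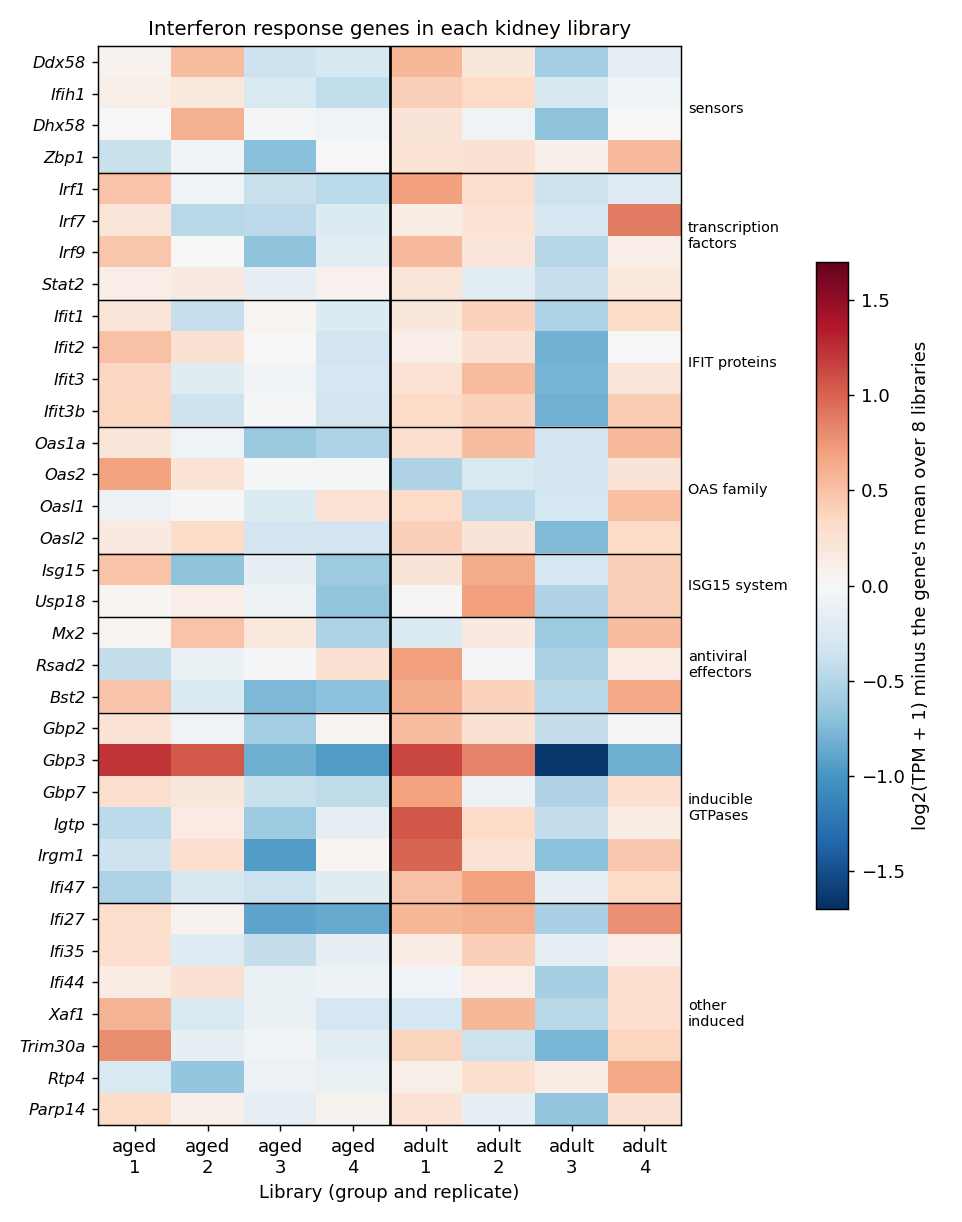
Each row is 1 of the 34 tested genes and each column a library (aged left, adult right), and the colour gives log2(TPM + 1) minus the gene's mean over the 8 libraries. Gbp3 has the strongest contrast, adult replicate 3 is mostly blue and adult replicate 4 mostly red.

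The level of the genes spanned a wide range. Over all 8 libraries Ifi27 was the highest, with 79.0 ± 33.9 TPM (SD, n = 8), followed by Bst2 with 31.9 ± 12.9 TPM, Ifit3 with 24.6 ± 6.93 TPM, Irgm1 with 18.5 ± 8.47 TPM and Isg15 with 14.8 ± 5.27 TPM. Among these 5, neighbours below Ifi27 had spreads (mean ± SD) that overlapped. The lowest were Mx2, Rtp4 and Mx1, with 1.05 ± 0.58, 1.02 ± 0.55 and 0.468 ± 0.25 TPM.

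The libraries took unequal shares of the highest and lowest values. Adult replicate 4 had the highest value of 10 of the 34 genes (Bst2, Ifi27, Ifi44, Ifit3b, Irf7, Mx2, Oas1a, Oasl1, Rtp4 and Zbp1), and of 1.81% of all genes tested. Adult replicate 1 was highest for 11 of the 34, among them the factors Irf1, Irf9 and Stat2 and the GTPases Gbp2, Gbp7, Igtp and Irgm1, and for 45.8% of all genes. Adult replicate 3 was lowest for 16 of the 34, all tested IFIT genes among them, and for 29.1% of all genes. Aged replicate 3 was lowest for 9 of the 34 and for 43.2% of all genes. After scaling by size factors the median deviation of the 34 genes from their means was 0.20, −0.31, 0.14 and −0.21 on the log2 scale in aged replicates 1 to 4, and −0.11, 0.10, −0.11 and 0.35 in adult replicates 1 to 4. Both groups thus held libraries on either side of 0, and the highest was adult replicate 4.

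**Figure D5:**
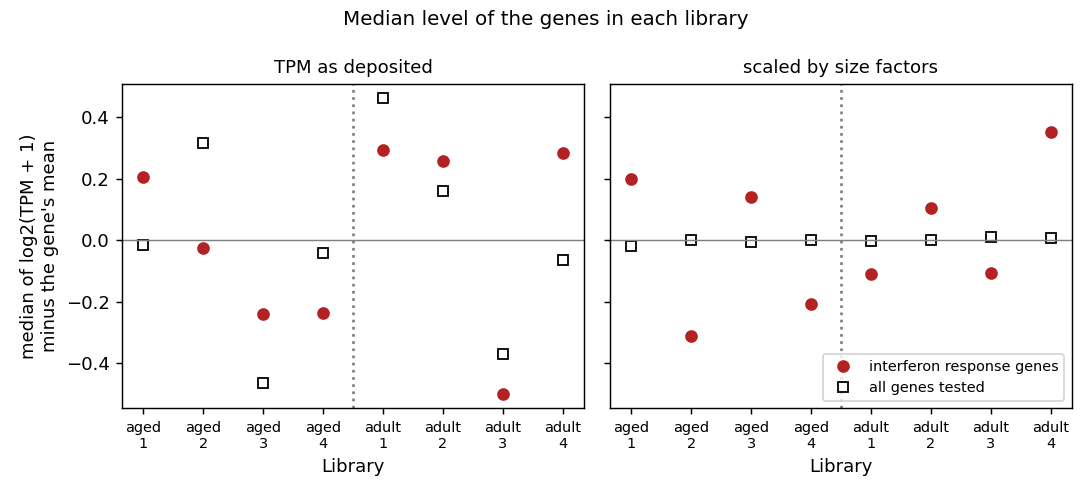
Median over genes of log2(TPM + 1) minus the gene's mean over 8 libraries (y axis), by library, for the 34 interferon response genes (filled) and all genes tested (open), as deposited (left) and scaled by size factors (right). After scaling all genes lie near 0 and the interferon response genes run from −0.31 in aged replicate 2 to 0.35 in adult replicate 4.

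No gene of the other pathway lists passed either. Of 12 tested adaptors, kinases and upstream factors 8 had negative and 4 positive fold changes (median −0.07), and 0 passed. The smallest p was that of Irf5, a factor of Toll-like receptor signalling, with 4.32 ± 0.93 TPM in aged and 7.06 ± 2.10 TPM in adult kidneys (SD, n = 4 each). The endosomal RNA sensor Tlr7 averaged 1.72 ± 2.04 TPM in aged and 0.673 ± 0.36 TPM in adult kidneys (SD, n = 4 each), with aged replicate 1 far above the rest at 4.69 TPM, while the double-stranded RNA sensor Tlr3 averaged 1.37 TPM in aged and 0.996 TPM in adult kidneys, and the lipopolysaccharide receptor Tlr4 2.03 TPM in aged and 1.36 TPM in adult kidneys. Of 12 tested negative regulators and nucleases 7 had negative and 5 positive fold changes (median −0.18), and 0 passed. Rnaseh2c, a subunit of RNase H2, which clears RNA from DNA, averaged 31.9 ± 8.38 TPM in aged and 49.5 ± 15.0 TPM in adult kidneys (SD, n = 4 each), with its catalytic partner Rnaseh2a at 12.3 TPM in aged and 16.9 TPM in adult kidneys. The RNA-editing Adar averaged 3.43 TPM in aged and 4.36 TPM in adult kidneys, and the phosphatase gene Ptpn6 9.61 TPM in aged and 12.1 TPM in adult kidneys.

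Of 42 tested interferon-induced genes outside the list 28 had negative and 14 positive fold changes (median −0.10), and 0 passed. Apobec3, a cytidine deaminase that mutates retroviral DNA, had 27.4, 22.1, 19.2 and 27.2 TPM in aged and 17.9, 17.8, 7.87 and 17.8 TPM in adult replicates 1 to 4. Every aged library lay above every adult one, with means of 24.0 ± 4.04 TPM in aged and 15.3 ± 4.96 TPM in adult kidneys (SD, n = 4 each), a log2 fold change of 0.67 (SE 0.30), an unadjusted p of 0.0479 and a limma adjusted p of 1.00. This pattern was found in 2 of the 42 genes and in 41 of all 11796 genes. With size factors it was found in 285 of all genes, and after mitochondrial genes were removed in 393 of 11783. Next in p after Apobec3 were Slfn5 with 8.27 TPM in aged and 5.48 TPM in adult kidneys, Uba7, the ISG15-activating enzyme, with 4.42 TPM in aged and 7.20 TPM in adult kidneys, and Ifi213 with 1.95 TPM in aged and 1.07 TPM in adult kidneys. Of 7 tested GTPases and chemokines of the interferon gamma response 3 were negative and 4 positive (median 0.00), and 0 passed. Among the GTPases, Iigp1 averaged 5.05 TPM in aged and 6.35 TPM in adult kidneys, Tgtp1 5.94 TPM in aged and 6.78 TPM in adult kidneys, Tgtp2 5.75 TPM in aged and 4.79 TPM in adult kidneys, and Gvin1 3.11 TPM in aged and 2.32 TPM in adult kidneys.

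Markers of leukocytes that can make or answer interferon were low or had sums that overlapped between the age groups. Summed over its list, each cell type is given as its range in aged and then in adult libraries. NK cell markers (6 genes) summed to between 1.43 and 6.57 TPM in aged and between 4.04 and 7.73 TPM in adult libraries, with Prf1 at most 0.0480 TPM in any. Both tested NK genes, Gzma and Nkg7, had negative log2 fold changes (−0.96 and −0.84, unadjusted p = 0.0278 and 0.0149, limma adjusted p = 1.00). Lower in aged kidneys at an unadjusted limma p under 0.05 were 2.76% of all genes. For Nkg7 every aged library (at most 0.90 TPM) lay below every adult one (at least 1.16 TPM), as for 2.11% of all genes. T cell markers (6 genes) summed to between 3.03 and 8.38 TPM in aged and between 5.11 and 8.25 TPM in adult libraries. Among them Cd3d, too low to be tested, had at most 0.729 TPM in aged and at least 0.934 TPM in adult libraries. This pattern was found in 2.11% of all genes tested. The means of Cd3e, Cd4 and Lck were also lower in aged kidneys. Those of Cd3g (1.79 TPM in aged, 1.58 TPM in adult) and Cd8a (0.738 TPM in aged, 0.530 TPM in adult) were higher. Macrophage markers (9 genes) summed to between 65.9 and 323 TPM and between 129.5 and 238 TPM, neutrophil markers (5 genes) to between 12.1 and 19.5 TPM and between 9.74 and 45.8 TPM, and B and plasma cell markers (7 genes) to between 172 and 577 TPM and between 47.9 and 226 TPM. Of the last, Igkc and Jchain had positive log2 fold changes (1.30 and 1.18, unadjusted p = 0.0267 and 0.0367, limma adjusted p = 1.00). Higher in aged kidneys at an unadjusted limma p under 0.05 were 0.636% of all genes. Of the 5 tested B and plasma cell genes 4 were positive, and Cd79b was negative (−0.50). The 4 markers of plasmacytoid dendritic cells, the main producers of type I interferon, summed to between 2.92 and 11.7 TPM in aged and between 4.80 and 9.84 TPM in adult libraries. Ly6d, between 2.21 and 10.5 TPM, made up most of this sum in every library. The defining marker Siglech was at most 0.629 TPM, Ccr9 at most 0.332 TPM and Spib at most 0.688 TPM, so the sum says little about these cells. In adult replicate 4, the highest library for the list after scaling, the same sums were 5.37, 6.44, 135, 25.6, 132 and 4.80 TPM, and none was the highest of the 8 libraries. The part of these cells in the age differences was not tested. Endothelial markers (6 genes) summed to between 114 and 158 TPM in aged and between 69.5 and 147 TPM in adult libraries, proximal tubule markers to between 532 and 1724 TPM and between 543 and 2163 TPM, podocyte markers to between 29.1 and 127 TPM and between 29.8 and 103 TPM, distal nephron markers to between 280 and 1923 TPM and between 384 and 2030 TPM, and red cell markers (5 genes) to between 933 and 14660 TPM and between 2700 and 10650 TPM.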

How the data were processed

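Values were TPM, which the authors deposited as 1 table of 8 kidney libraries. Per the submitters' processing notes the build was GRCm38 and the tools included DESeq2 and kallisto, while the step each tool served is not stated there. Per the labels, libraries were stranded and made from polyadenylated RNA. The table held 30153 rows, 98.6% of which matched a gene symbol by Ensembl ID. Library totals lay between 924798 and 950974 TPM, and read depth is unknown. Genes with a mean of at least 1 TPM were tested on log2(TPM + 1) with limma (version 3.58.1, run in R 4.3.3) and its trend option. This scale understates the change of low genes. Benjamini-Hochberg adjustment ran over all genes tested, with a threshold of 0.05. The fit was tested on simulated data. Libraries were classed by the summed TPM of 4 Y-linked genes, at least 10 or under, with age in the model. All 35 genes were named whatever their test, and from each pathway list the up to 4 genes of smallest p. The genes, the pathway lists and the cell type markers were chosen with earlier results of these data known. Separate animals are stated per group, so the p-values measure the spread between animals. Alternatives changed the pseudocount, filter, scaling, limma settings, block, covariate and libraries. Promoter sequences came from RefSeq on GRCm38.p6. The summary of the list of receptor kinases and STATs is not reported here.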

Additional observations from a re-analysis of the deposited data

Results flagged for a closer look

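In 4 of 70 groups of 4 libraries examined, 1 library lay far from the others by Dixon's criterion (gap over range above 0.829), which chance meets in about 1 in 20 groups. Dhx58 had 2.24 TPM in aged replicate 2, with a gap of 0.925 of the range of the aged libraries. Trim30a had 6.13 TPM in aged replicate 1, with a gap of 0.903. Xaf1 had 19.5 TPM in aged replicate 1, with a gap of 0.850. Ifit3b had 2.58 TPM in adult replicate 3, below the other adult libraries, with a gap of 0.872.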

How the results depend on the processing

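Of 733 alternative fold changes of the 34 genes, 674 kept direction and side of the threshold and 59 changed sign, in 21 genes. The cause of the sign changes was not tested. The 674 include settings that could not move a fold change. These were the changes of filter, limma without trend, robust estimation, the replicate block and the Y-linked covariate. After mitochondrial genes were removed the median became 0.068, and the fold changes turned positive for Ddx58 (0.26), Ifih1 (0.036), Irf1 (0.061), Irf9 (0.067), Ifit1 (0.041), Ifit3 (0.20), Ifit3b (0.098), Oasl1 (0.12), Oasl2 (0.16), Rsad2 (0.13), Gbp2 (0.069), Gbp7 (0.035), Ifi35 (0.037) and Xaf1 (0.25). With size factors Ddx58 (0.082), Ifit3 (0.012), Oasl1 (0.0045) and Xaf1 (0.058) turned positive, and with quantile normalization Ddx58 (0.053), Ifit3 (0.083) and Xaf1 (0.086). With array weights Ddx58 became 0.061, Mx2 −0.40, Ifi44 −0.12 and Trim30a −0.025. In the 4 libraries with Y-linked transcripts Ddx58 became 0.056, Ifit1 0.011, Ifit3 0.13, Ifit3b 0.014, Mx2 −0.12 and Rsad2 0.31, and in the 4 without them Xaf1 became 0.026. With 1 library left out, ranges that crossed 0 were −0.20 to 0.17 for Ddx58, −0.39 to 0.00014 for Irf9, −0.015 to 0.19 for Stat2, −0.015 to 0.36 for Ifit2, −0.37 to 0.071 for Ifit3, −0.21 to 0.11 for Oasl1, −0.37 to 0.022 for Oasl2, −0.097 to 0.29 for Mx2, −0.35 to 0.064 for Rsad2, −0.26 to 0.66 for Gbp3, −0.37 to 0.029 for Gbp7, −0.068 to 0.21 for Ifi44, −0.24 to 0.14 for Xaf1, −0.028 to 0.36 for Trim30a and −0.039 to 0.27 for Parp14. The median of the list then lay between −0.36 (without adult replicate 3) and −0.04 (without adult replicate 1).

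Genes called between aged and adult kidneys, 0 with all libraries, numbered 1 with array weights, 16 in the 4 libraries with Y-linked transcripts, 3 in the 4 without and 0 to 2 with 1 library left out, none of them on the list. With the replicate block 0 genes were called, the median of the list was −0.18, and 916 genes had an unadjusted p under 0.05. Same-numbered samples deviated together with correlations of 0.04, 0.18, 0.49 and 0.42 for replicates 1 to 4, and replicates 3 and 4 but not 1 and 2 correlated best with their own number, so the numbers were not taken as pairs. By Y-linked class 1464 genes were called, against 762 with no filter, 640 with size factors, 635 with quantile normalization, 687 without mitochondrial genes and 392 to 1953 with 1 library left out. The interaction called 4 genes, against 0 with no filter, 2 with size factors and 1 to 16 with 1 library left out. In alternatives chosen after seeing the data, the genes of the list with every aged library below every adult one, 3 in all, numbered 1 with size factors (2.6% of all genes), 1 with quantile normalization (1.92%), 0 without mitochondrial genes (0.501%) and 3 to 5 with 1 library left out (2.27% to 5.15%). TPM without read depth set no floor for genes near 0, such as the interferons.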
